A study of Mus musculus with 9 samples.

Results

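The 10 genes described here encode proteins that a tumour cell shows to immune cells. They are of 2 kinds: ligands of inhibitory immune receptors (Cd274, Cd276, Cd47, Cd200, Cd24a, Pvr, Nectin2 and Nectin3) and the ectonucleotidases that make extracellular adenosine (Entpd1 and Nt5e). They were taken by name from the 55401 genes counted, with earlier results of these data known, though the rule itself uses no measured value. Lists of related genes are described after them. All 10 passed the filter on low counts.

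Messenger RNA was sequenced from cultured NP53 cells, a mouse tumour line of diffuse midline glioma, a childhood brainstem cancer. There were 3 groups of 3 libraries: G1C7 and G2C9, which are derivatives of NP53 with the genotype TIM-3 knockout, and Gcontrol, which is NP53 with a wild-type genotype. All groups were grown in serum-containing DMEM with antibiotics. The labels do not say whether a derivative came from a single cell, how TIM-3 was disrupted or whether each library had its own culture. The spread behind each p-value is therefore that of the libraries and may be technical. The comparisons ask how lines labelled as TIM-3 knockouts differ in these genes from the line they were made from.

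A checkpoint ligand binds an inhibitory receptor on a T cell, a natural killer cell or a macrophage and lowers that cell's activity. PD-L1, the product of Cd274, acts in this way through PD-1, and CD47 acts on macrophages through SIRPA as a signal against engulfment. Adenosine is made outside the cell in steps: CD39, the product of Entpd1, cuts ATP and ADP to AMP, and CD73, the product of Nt5e, cuts AMP to adenosine, which dampens lymphocytes. In gliomas these molecules are studied as routes by which tumour cells hold off immune attack.

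Promoter windows are shown for 2 members that were called (Entpd1 and Cd200) and for 2 that were high in the same pair of libraries (Nectin2 and Nt5e). RefSeq (assembly GRCm38.p6) gave 10 windows, each of 250 bases before to 50 bases after a transcript start, for 8 of the 10 members. Pvr and Cd24a had none. Sequences run 5′ to 3′ on the strand of the gene, and capitals mark matches of a searched motif, here the GC box GGGCGG or its complement.
Entpd1 upstream window (chr19:40612116-40612415, plus strand): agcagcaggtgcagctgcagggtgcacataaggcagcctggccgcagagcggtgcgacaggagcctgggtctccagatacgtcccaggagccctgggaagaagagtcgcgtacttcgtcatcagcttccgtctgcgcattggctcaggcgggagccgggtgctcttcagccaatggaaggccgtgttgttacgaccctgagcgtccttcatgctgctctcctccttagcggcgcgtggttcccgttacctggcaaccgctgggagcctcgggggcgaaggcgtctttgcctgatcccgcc
Entpd1 downstream window (chr19:40659520-40659819, plus strand): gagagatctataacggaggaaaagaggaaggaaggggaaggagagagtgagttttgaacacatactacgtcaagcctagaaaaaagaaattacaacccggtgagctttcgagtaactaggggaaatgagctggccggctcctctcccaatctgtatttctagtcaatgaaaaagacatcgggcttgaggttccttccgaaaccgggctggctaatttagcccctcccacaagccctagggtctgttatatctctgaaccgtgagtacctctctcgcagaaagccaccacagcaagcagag
Cd200 (chr16:45409004-45409303, minus strand): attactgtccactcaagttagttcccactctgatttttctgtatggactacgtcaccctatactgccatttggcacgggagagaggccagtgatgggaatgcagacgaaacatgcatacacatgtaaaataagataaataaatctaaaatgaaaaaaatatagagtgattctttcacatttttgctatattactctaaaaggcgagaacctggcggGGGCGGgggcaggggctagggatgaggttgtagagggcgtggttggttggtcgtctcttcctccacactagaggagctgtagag
Nectin2 (chr7:19749524-19749823, minus strand): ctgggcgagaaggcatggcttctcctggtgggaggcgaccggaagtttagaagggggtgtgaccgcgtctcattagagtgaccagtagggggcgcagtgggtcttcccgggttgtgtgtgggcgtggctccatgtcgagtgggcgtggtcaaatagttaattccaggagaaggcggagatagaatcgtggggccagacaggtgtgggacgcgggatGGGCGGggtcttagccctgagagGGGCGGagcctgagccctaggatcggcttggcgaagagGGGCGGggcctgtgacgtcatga
Nt5e (chr9:88327359-88327658, plus strand): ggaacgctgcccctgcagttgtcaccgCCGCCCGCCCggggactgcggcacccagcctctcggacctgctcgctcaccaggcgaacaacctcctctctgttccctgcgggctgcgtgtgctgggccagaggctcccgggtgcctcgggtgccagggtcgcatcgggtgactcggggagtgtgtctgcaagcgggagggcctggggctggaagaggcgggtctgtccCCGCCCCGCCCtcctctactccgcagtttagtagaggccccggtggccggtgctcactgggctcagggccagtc

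Motifs were searched on both strands, and no motif searched holds another. The GC box, which SP1 binds, matched in 8 of the 10 windows, against 35.7% of the 32851 windows of all genes. The 2 windows without it were both those of Entpd1. The 10 windows are not independent, as the 2 of Cd47 overlap and hold the same GC boxes. In Nt5e neighbouring matches share bases. The HIF core ACGTG matched in 3 of the 10 windows, those of Cd274 and the 2 overlapping ones of Cd47, against 19.6% of all windows. The NF-kB motif matched in 0 of 10 (8.46% of all windows), the interferon response element in 0 (3.44%) and the AP-1 motif TGANTCA in 0 (7.81%). The GAS motif TTCNNNGAA matched in 0 of 10 as well (8.3%). With 10 windows and shares this low, 0 matches is near the background. A match, or its lack, describes these letters only.

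Between 50110129 and 56035382 reads fell in genes per library, so that 1 read stands for 0.0176 to 0.0204 CPM (counts scaled to library size, with TMM factors). Levels below are CPM, and changes are log2 fold changes ± SE from a fit across 15659 genes. The transcript of the targeted gene, Havcr2, had 55, 6 and 66 reads in G1C7, 28 to 39 in G2C9 and 58 to 74 in Gcontrol. The low value in G1C7 is that of replicate 2 alone. Havcr2 did not pass the test in either derivative (edgeR adjusted p = 0.586 and 0.448 for G1C7 and G2C9). Gene counts do not show an edit. Of 8 listed glioma markers, Olig1 and Olig2, which mark the oligodendrocyte lineage, had 0 reads in all 9 libraries. The sum of that list was 2787 to 2843 CPM in G1C7, 2504 to 2606 in G2C9 and 2262 to 2322 in Gcontrol, most of it Vim. Its members differed in direction: of 6 tested, 3 were higher and 1 lower in G1C7, and 1 higher and 1 lower in G2C9. The lower one was Cspg4, which encodes the surface proteoglycan NG2, at 1.3 ± 0.341 CPM in G1C7 and 4.27 ± 1.04 in G2C9, against a mean of 43.6 CPM in Gcontrol (edgeR adjusted p = 3.45e-05 for G1C7 and 1.57e-04 for G2C9). The 8 markers of T and NK cells summed to at most 0.0913 CPM in G1C7, 0.139 in G2C9 and 0 in Gcontrol, with Cd3e, Cd3g and Ncr1 at 0 throughout. The 8 myeloid markers summed to 3.25 to 8.01, 4.80 to 7.56 and 6.90 to 7.87 CPM in G1C7, G2C9 and Gcontrol, with Tyrobp at 0 and Ptprc at 0 to 4 reads. Cd68 (115 to 247 reads) and P2ry12 (22 to 167 reads) made up much of the myeloid sum. B cell markers summed to at most 0.106 CPM in any library. Endothelial markers summed to 1.55 to 1.72 CPM in G1C7, 3.80 to 4.75 in G2C9 and 1.02 to 1.35 in Gcontrol. Neuron markers summed to 1.10 to 4.97, 1.74 to 5.80 and 4.38 to 4.78 CPM in G1C7, G2C9 and Gcontrol. In bulk RNA, fewer cells of a type and less RNA per cell cannot be told apart.

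A pair of libraries, G1C7 replicate 2 and G2C9 replicate 3, stood away from their own groups. On the second principal component (24.8% of the variance) they lay at -79.4 and -49.8, and the other 7 libraries between 4.13 and 30.5. A list of 12 inflammation genes summed to 9293 CPM in G1C7 replicate 2, against 4162 and 4201 in the other libraries of G1C7, and to 17220 CPM in G2C9 replicate 3, against 5661 and 5928. In Gcontrol the sum was 5454 to 5968. Most of each sum was Cxcl1 and Il1rl1, and the list was not uniform. In G1C7 replicate 2 only Ccl2 was lower than in the rest of its group (147.6 CPM, against 162.4 and 171.2). In G2C9 replicate 3 only Nfkbia (139.1 CPM, against 150.1 and 146.9) and Tnfaip3 (37.06, against 43.23 and 40.94) were lower. A list of 5 fibroblast and pericyte markers summed to 4612 CPM in G1C7 replicate 2 and 5469 in G2C9 replicate 3, against 1946 to 2575 in the other libraries of the derivatives and 3646 to 3857 in Gcontrol. These higher sums came from Col1a1 and Dcn. Pdgfrb was lower in G1C7 replicate 2 (215.9 CPM, against 323.6 and 305.2). In G2C9 replicate 3 it was 335.2 CPM, against 327.8 and 315.6. Lum and Rgs5 had at most 14 reads in any library. No label gives these 2 libraries a batch, a culture or a date. The part of inflammation or of stromal RNA in the members' values was not tested, and each member's change is given with and without these 2 libraries. The fit without them was chosen after the data were seen. Dropping the libraries that deviated most narrows the spread, so its p-values are likely too small.

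Few of the members passed the test in the fit of all 9 libraries. In G1C7, Entpd1 was higher and Cd24a lower, 2 of 10 members, where 17.5% of all tested genes were called. In G2C9, Cd200 was lower, 1 of 10 members, where 13.5% of all genes were called. The median change of the 10 members was -0.01 in G1C7 and 0.00 in G2C9, against 0.02 and 0.01 over all genes. For the mean of both derivatives, Entpd1 was higher and Cd24a and Cd200 were lower, 3 of 10, where 20.0% of genes were called. Between G1C7 and G2C9, 0 of 10 members passed, where 3.36% of genes did. Both comparisons use the same Gcontrol libraries.

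Expressed per kilobase of exon, the members differed widely in level in Gcontrol, and the libraries of neighbours in the order did not overlap there. Cd47 came first at a level of 26.3 CPM per kb, then Cd24a at 13.7, Nectin2 at 11.1, Pvr at 10.3 and Cd276 at 4.78. Nt5e followed at 3.89 CPM per kb, Cd200 at 2.15, Nectin3 at 1.86, Cd274 at 0.403 and Entpd1 at 0.0739. In G1C7 the order was Cd47 (27.7), Nectin2 (18.5), Pvr (16.0), Cd276 (3.36), Nt5e (2.45), Nectin3 (2.12), Cd200 (1.89), Cd24a (1.27), Entpd1 (1.22) and Cd274 (0.377), and only Pvr and Cd276 were neighbours whose libraries did not overlap. In G2C9 it was Cd47 (26.8), Pvr (16.3), Nectin2 (15.4), Nt5e (5.27), Cd24a (4.15), Cd276 (3.86), Nectin3 (1.83), Cd200 (0.951), Cd274 (0.373) and Entpd1 (0.288). There Pvr overlapped with Nectin2, Nt5e with Cd24a, Cd24a with Cd276 and Cd274 with Entpd1. In G1C7 the places of Nectin2 (9.71 to 35.3 CPM per kb), Cd276 (1.49 to 6.93) and Nt5e (0.859 to 5.59) rest on replicate 2. In the other libraries of G1C7, Nectin2 was below Pvr, and Cd276 and Nt5e were below Nectin3 and Cd200. The libraries of Cd24a in G1C7 spanned 0.276 to 3.01 CPM per kb, with replicate 2 the highest.

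**Figure D1:**
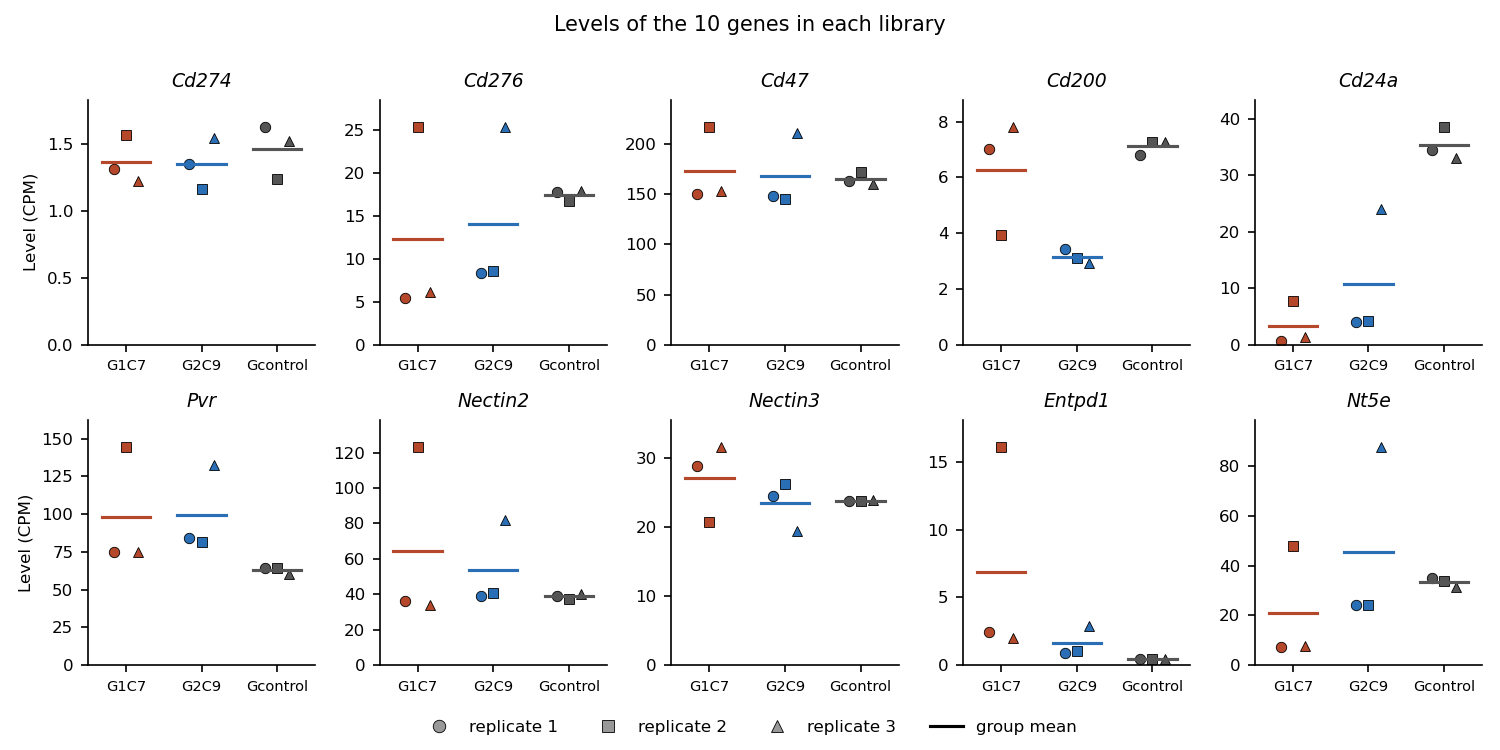
Level of each of the 10 genes in CPM in every library (points) of G1C7, G2C9 and Gcontrol, with the group means as horizontal lines. Vertical axes are linear, start at 0 and differ between panels. The 3 Gcontrol libraries lie close together in each panel but that of Cd274 (1.24 to 1.63 CPM). G1C7 replicate 2 and G2C9 replicate 3 stand away from their groups in most panels.

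Entpd1 (ENSMUSG00000048120.16, chromosome 19, 40612366 to 40741602, plus strand, in GRCm38 as are all positions below) encodes CD39 and was the member with the largest rise. Its level was 2.43, 16.1 and 1.95 CPM in G1C7, 0.911, 1.04 and 2.87 CPM in G2C9 and 0.407, 0.407 and 0.423 CPM in Gcontrol. All 6 derivative libraries were above all 3 Gcontrol libraries, and both libraries that stood apart were the highest of their groups. In reads these were 130, 884 and 107 in G1C7, 46, 51 and 147 in G2C9 and 22, 22 and 24 in Gcontrol, so the Gcontrol level rests on few reads. The log2 fold change was 4.04 ± 0.91 for G1C7 (edgeR adjusted p = 0.0172) and 1.96 ± 0.86 for G2C9 (adjusted p = 0.181), and the derivatives differed by 2.08 ± 0.82 (adjusted p = 0.262). Leaving out any 1 Gcontrol library ended the call in G1C7 (adjusted p up to 0.0776). Without the 2 libraries that stood apart it was 2.41 in G1C7 (adjusted p = 2.54e-07), 1.24 in G2C9 (adjusted p = 0.00104) and 1.17 between them (adjusted p = 0.00216).

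Nt5e (ENSMUSG00000032420.8, chromosome 9, 88327197 to 88372092, plus strand) encodes CD73, the enzyme after CD39, and did not pass the test in either derivative. Its level was 7.39, 48.0 and 7.82 CPM in G1C7, 24.1, 24.1 and 87.8 in G2C9 and 34.8, 34.0 and 31.6 in Gcontrol. The libraries overlap: the libraries that stood apart were above Gcontrol and the other 4 derivative libraries were below it. The log2 fold change was -0.67 ± 0.77 for G1C7 (edgeR adjusted p = 0.604) and 0.44 ± 0.76 for G2C9 (adjusted p = 0.771), and the derivatives differed by -1.10 ± 0.77 (adjusted p = 0.608). In the fit without the 2 libraries it was -2.13 (adjusted p = 1.58e-13) and -0.47 (adjusted p = 9.05e-06), so the direction in G2C9 turned, and G1C7 was lower than G2C9 by a log2 difference of -1.66 (adjusted p = 4.92e-11).

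**Figure D2:**
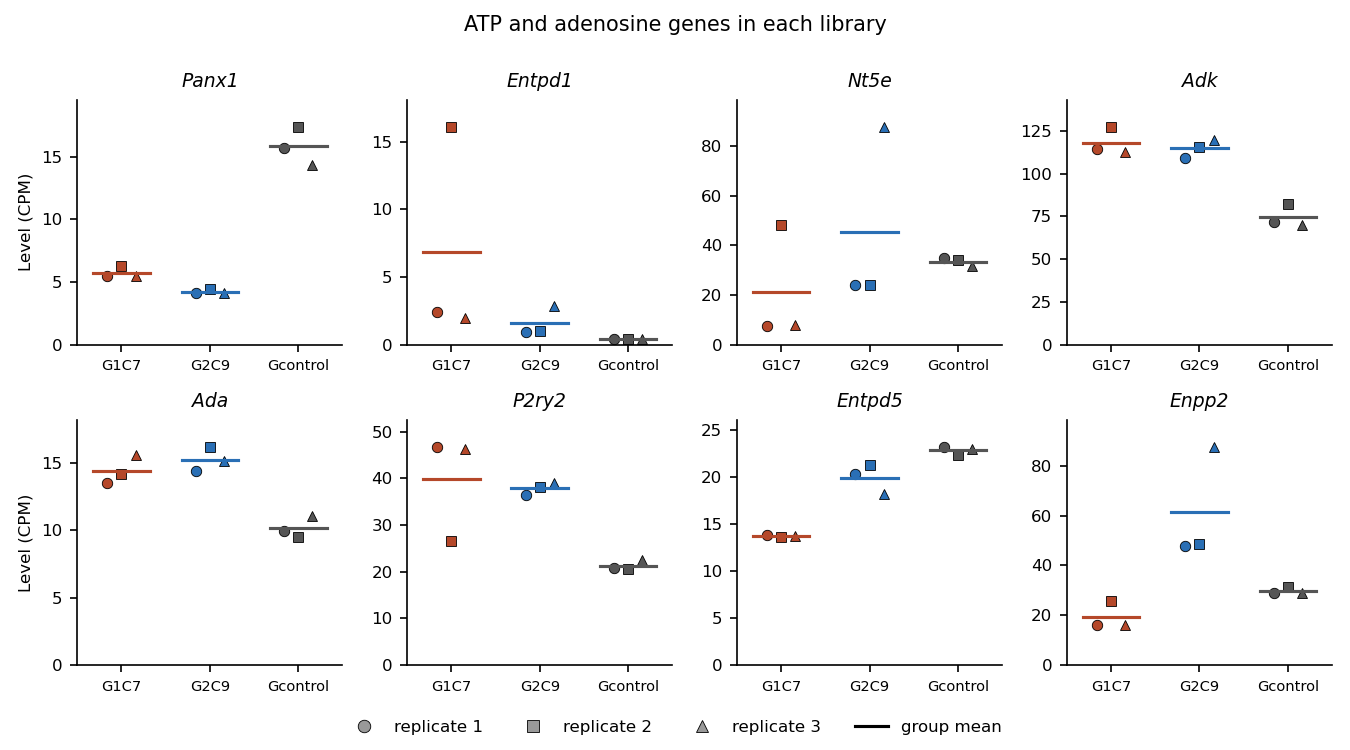
Level in CPM (linear axes from 0) in each library (points) of G1C7, G2C9 and Gcontrol, with group means as lines. Shown are Entpd1, Nt5e and 6 genes from a list of ATP and adenosine genes and related enzymes. Panx1 is lower in all 6 derivative libraries (4.12 to 6.30 CPM) than in Gcontrol (14.3 to 17.4 CPM), and Entpd1 is higher in all 6.

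Cd24a (ENSMUSG00000047139.9, chromosome 10, 43578284 to 43584265, plus strand) encodes CD24, a small sialylated surface protein bound by Siglec receptors, Siglec-10 in human and Siglec-G in mouse. Its level was 0.711, 7.76 and 1.33 CPM in G1C7, 3.96, 4.14 and 24.0 CPM in G2C9 and 34.4, 38.6 and 33.1 CPM in Gcontrol. All 6 derivative libraries were below all 3 Gcontrol libraries, and the libraries that stood apart were nearest to them. The log2 fold change was -3.43 ± 0.99 for G1C7 (edgeR adjusted p = 0.0452) and -1.72 ± 0.92 for G2C9 (adjusted p = 0.270), and the difference between the derivatives did not pass (adjusted p = 0.471). The call in G1C7 held in 2 of the 9 fits that left out 1 library, with the highest adjusted p, 0.119, without G1C7 replicate 3. Without the 2 libraries that stood apart the change was -5.10 for G1C7 (adjusted p = 1.29e-13) and -3.12 for G2C9 (adjusted p = 4.34e-12), and G1C7 was below G2C9 by -1.98 (adjusted p = 1.10e-06). The longest alignment of Cd24a with another gene, Gm6212, was 96.8% identical over 218 bases, where Cd24a has 2580 exon bases. Some reads there could be split or dropped between the genes.

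Cd200 (ENSMUSG00000022661.14, chromosome 16, 45382135 to 45409053, minus strand) encodes a ligand of the inhibitory receptor CD200R on myeloid cells. Its level was 7.03, 3.93 and 7.82 CPM in G1C7, 3.45, 3.10 and 2.93 CPM in G2C9 and 6.82, 7.28 and 7.27 CPM in Gcontrol. All 3 G2C9 libraries were below all others, while G1C7 replicates 1 and 3 lay near Gcontrol and replicate 2 lay near G2C9. The log2 fold change was -0.19 ± 0.24 for G1C7 (edgeR adjusted p = 0.647) and -1.17 ± 0.25 for G2C9 (adjusted p = 0.0154), and the derivatives differed by 0.99 ± 0.25 (adjusted p = 0.0730). The call in G2C9 held in 5 of 9 fits that left out 1 library and ended without G2C9 replicate 2 or any 1 Gcontrol library (adjusted p up to 0.0657). Without the 2 libraries that stood apart, it was 0.06 for G1C7 (adjusted p = 0.640) and -1.12 for G2C9 (adjusted p = 3.05e-07), and the difference between the derivatives passed the test at 1.18 (adjusted p = 1.08e-06).

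**Figure D3:**
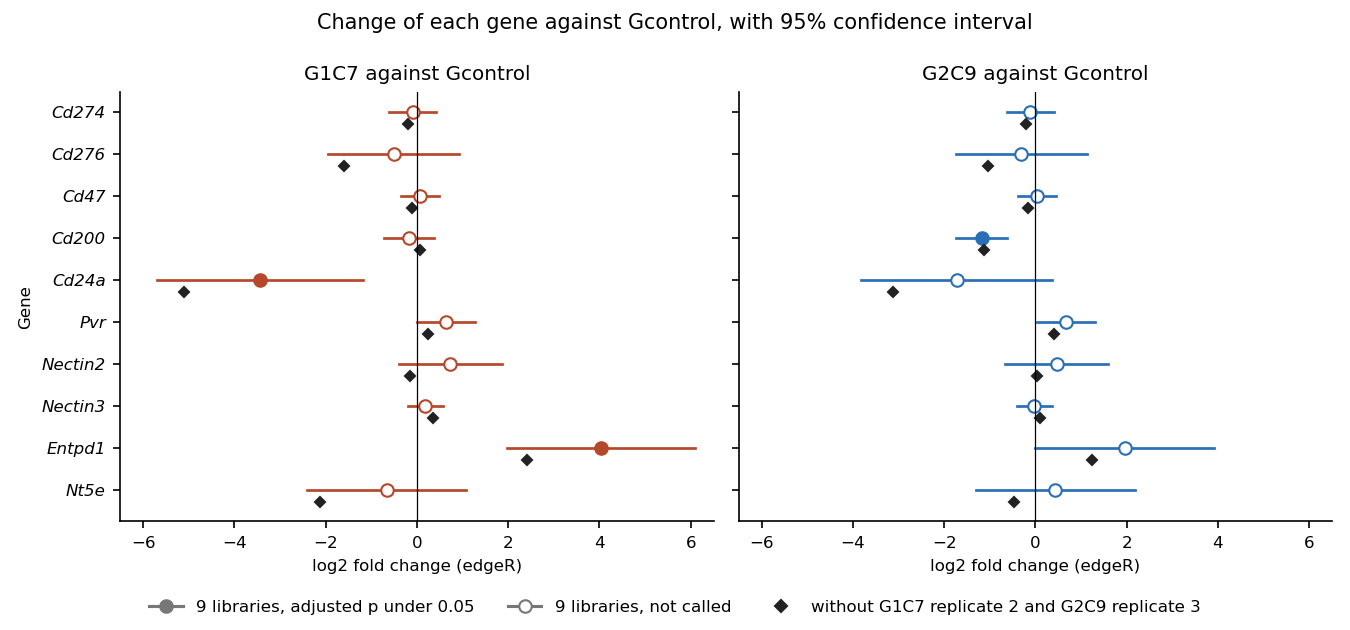
Log2 fold change of each gene in G1C7 (left) and G2C9 (right) against Gcontrol from all 9 libraries, with 95% confidence intervals as lines and filled circles for called genes. Diamonds give the change without the 2 libraries that stood apart, for example 2.41 in place of 4.04 for Entpd1 in G1C7 and -5.10 in place of -3.43 for Cd24a.

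The ligands of the TIGIT family of receptors were Pvr, Nectin2 and Nectin3. Pvr (ENSMUSG00000040511.14, chromosome 7, 19903578 to 19921160, minus strand), a ligand of TIGIT, CD96 and the activating receptor CD226, had 74.6, 144.5 and 75.2 CPM in G1C7, 84.5, 81.7 and 132.5 in G2C9 and 64.4, 64.1 and 60.5 in Gcontrol. All 6 derivative libraries were above Gcontrol. The log2 fold change was 0.64 ± 0.28 for G1C7 (edgeR adjusted p = 0.157) and 0.66 ± 0.28 for G2C9 (adjusted p = 0.166), neither past the test. Without the 2 libraries that stood apart it was 0.25 (adjusted p = 1.88e-04) and 0.40 (adjusted p = 1.18e-06).

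Nectin2 (ENSMUSG00000062300.14, chromosome 7, 19716644 to 19750483, minus strand), an adhesion protein that in human binds CD226 and PVRIG, lies near Pvr. It had 36.2, 123.2 and 33.9 CPM in G1C7, 39.1, 40.4 and 81.7 in G2C9 and 39.2, 37.1 and 40.3 in Gcontrol. The 2 libraries that stood apart were highest, and the other 7 lay between 33.9 and 40.4 CPM. Its log2 fold change was 0.73 ± 0.50 for G1C7 (edgeR adjusted p = 0.358) and 0.47 ± 0.50 for G2C9 (adjusted p = 0.606), and without those libraries -0.14 (adjusted p = 0.0433) and 0.04 (adjusted p = 0.641). Nectin3 (ENSMUSG00000022656.15, chromosome 16, 46387706 to 46498525, minus strand), which pairs with other nectins at cell junctions, went the other way in the same libraries. It had 28.8, 20.6 and 31.5 CPM in G1C7, 24.5, 26.2 and 19.4 in G2C9 and 23.7, 23.7 and 23.8 in Gcontrol, with overlap throughout. Its log2 fold change was 0.19 ± 0.17 (edgeR adjusted p = 0.498) in G1C7 and -0.02 ± 0.17 (adjusted p = 0.957) in G2C9, and without those libraries 0.35 (adjusted p = 1.46e-04) and 0.10 (adjusted p = 0.223).

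Cd47, Cd276 and Cd274 did not pass the test in the fit of all 9 libraries. Cd47 (ENSMUSG00000055447.19, chromosome 16, 49800533 to 49915010, plus strand) had 150.7, 217.4 and 153.1 CPM in G1C7, 148.0, 145.1 and 211.3 in G2C9 and 163.4, 172.0 and 160.6 in Gcontrol. The libraries that stood apart were above Gcontrol and the other derivative libraries below it. Its log2 fold change was 0.07 ± 0.18 for G1C7 (edgeR adjusted p = 0.825) and 0.02 ± 0.18 for G2C9 (adjusted p = 0.955), and without those libraries -0.12 (adjusted p = 0.0256) and -0.17 (adjusted p = 0.00265). Cd276 (ENSMUSG00000035914.11, chromosome 9, 58524298 to 58555437, minus strand), which encodes the B7 family protein B7-H3, had 5.44, 25.3 and 6.12 CPM in G1C7, 8.32, 8.57 and 25.4 in G2C9 and 17.8, 16.8 and 17.9 in Gcontrol. It showed the same pattern, with a log2 fold change of -0.51 ± 0.63 for G1C7 (edgeR adjusted p = 0.631) and -0.31 ± 0.63 for G2C9 (adjusted p = 0.809), and -1.59 (adjusted p = 6.97e-11) and -1.05 (adjusted p = 1.21e-08) without those libraries.

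Cd274 (ENSMUSG00000016496.7, chromosome 19, 29367455 to 29388095, plus strand), which encodes PD-L1, stood at or next to the bottom of the order per kilobase in each group. It had 1.31, 1.57 and 1.22 CPM in G1C7, 1.35, 1.16 and 1.54 in G2C9 and 1.63, 1.24 and 1.52 in Gcontrol, and the groups overlap. The log2 fold change was -0.10 (95% interval -0.61 to 0.41) in G1C7 (edgeR adjusted p = 0.807) and -0.11 (-0.62 to 0.40) in G2C9 (adjusted p = 0.807), and it passed in none of the fits without 1 library or without both. The gene of the other PD-1 ligand, Pdcd1lg2, had 0 reads in all 9 libraries. Exons of Cd274, Cd276 and Nectin2 overlap those of AC119228.1 (14.1% of exon bases), Gm10657 (11.4%) and Gm20512 (3.86%), and strand was not used in counting, so reads there are uncertain.

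When the 2 libraries that stood apart were left out, most members differed from Gcontrol in each derivative, as did most genes. In G1C7 3 members were higher and 5 lower, where 54.3% of all genes were called. In G2C9 2 were higher and 5 lower, where 53.0% were called. Between G1C7 and G2C9, 3 were higher and 5 lower, where 27.3% were called. These fits were chosen after the data were seen and leave 2 libraries in each derivative. Their p-values are likely too small, since the libraries that deviated most were dropped. Of all 9 libraries, 3 members had libraries of G1C7 that did not overlap with Gcontrol (Cd24a lower, Pvr and Entpd1 higher), where 43.0% of all genes did not. In G2C9 4 members did not overlap (Cd200 and Cd24a lower, Pvr and Entpd1 higher), where 43.3% of all genes did not.

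**Figure D4:**
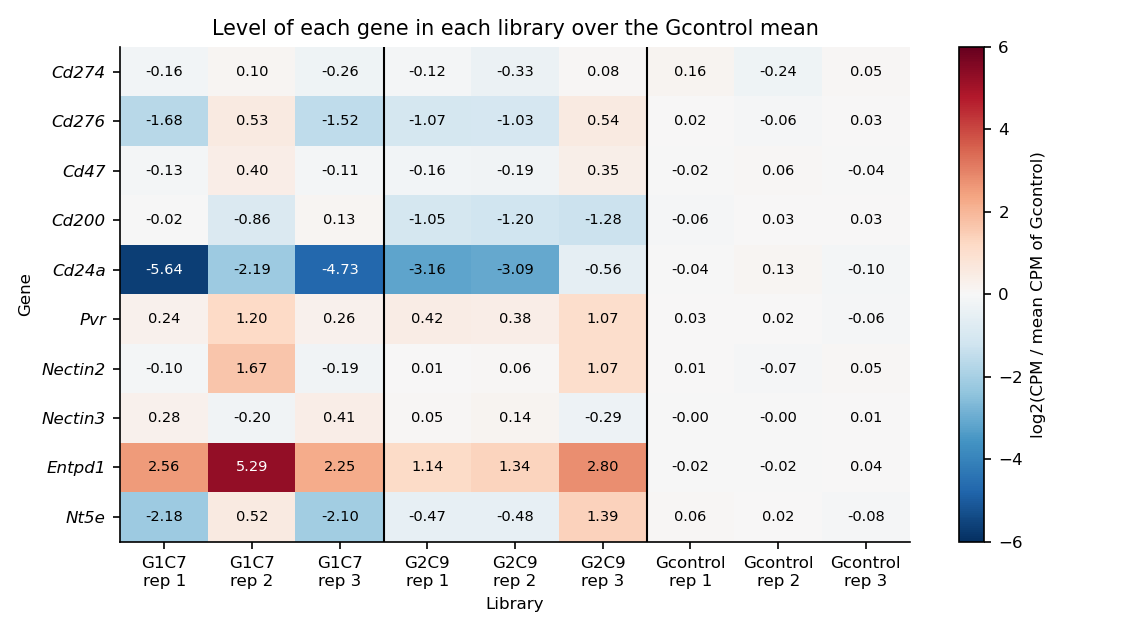
Heat map of log2(CPM over the mean CPM of Gcontrol) for each gene (rows) in each library (columns), with the value printed in each cell. Entpd1 is above 0 and Cd24a below 0 in all 6 derivative libraries, while Cd276, Cd47 and Nt5e are above 0 in G1C7 replicate 2 and G2C9 replicate 3 and below 0 in the other 4.

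In the 2 libraries that stood apart, 6 members were high together. In G1C7 replicate 2, Entpd1, Cd24a, Nt5e, Cd276, Nectin2 and Pvr were 7.34, 7.59, 6.32, 4.38, 3.51 and 1.93 times the mean of the other 2 libraries. In G2C9 replicate 3 the same genes were 2.94, 5.92, 3.65, 3.01, 2.06 and 1.6 times that mean. The 6 members were at least 1.5-fold above in both libraries, where 13.8% of the tested genes were. Cd200 was 0.530 times the mean in G1C7 replicate 2 and 0.895 times in G2C9 replicate 3, and Nectin3 0.684 and 0.766 times. Over the 9 libraries, log2 levels of Nt5e and Cd276 correlated at r = 0.92 and those of Nt5e and Nectin3 at r = -0.96. These libraries share groups and the 2 that stand apart, so r describes them only.

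Genes most like the called members were looked for over the 9 libraries by the correlation of log2 CPM. Entpd1 was most like Mettl26, Mut and Glb1 (r = 0.99 each), Cd24a was most like Adam15, Urah and Ackr3 (r = 0.99, 0.99 and 0.98), and Cd200 was most like Kctd17, Nt5c3b and Ubac1 (r = 0.99, 0.98 and 0.98). The tested genes within 5 Mb of a called member did not share its direction as a group. The median log2 fold change of the 49 genes around Cd24a was 0.22 in G1C7 and 0.30 in G2C9, where that of all genes was 0.02 and 0.01. For the 96 genes around Entpd1 it was -0.06 in both, and for the 37 around Cd200 -0.02 in G1C7 and 0.02 in G2C9.

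Some receptors of these ligands were read in the tumour cells too. Of the 14 listed receptor genes, 6 passed the filter, and 1 was higher and 0 lower in G1C7, 2 higher and 0 lower in G2C9, where 17.5% and 13.5% of all genes were called in G1C7 and G2C9. Sirpa, the receptor of CD47, averaged 92.8 ± 0.380 CPM in G1C7, 104 ± 21.0 in G2C9 and 48.0 ± 1.3 in Gcontrol (SD, n = 3 each). All 6 derivative libraries were above Gcontrol, and the log2 fold change was 0.95 ± 0.13 for G1C7 (edgeR adjusted p = 0.00202) and 1.12 ± 0.13 for G2C9 (adjusted p = 0.00115), past the test in all 9 fits that left out 1 library. Pvrig, which encodes a receptor of nectin 2 in human, had 51, 30 and 29 reads in G2C9, against 2, 4 and 0 in G1C7 and 4, 6 and 1 in Gcontrol. It was higher in G2C9, where its log2 fold change was 3.40 ± 0.72 (edgeR adjusted p = 0.0159; up to 0.0837 with 1 library left out). Siglecg, the mouse receptor of CD24, was named after its values were seen. It had 18.6, 121 and 18.9 CPM in G1C7, 22.5, 23.9 and 67.2 in G2C9 and 21.3, 19.5 and 20.1 in Gcontrol, high only in the libraries that stood apart.

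From a list of ATP and adenosine genes and related enzymes, 26 of 35 were tested. The list is wider than the extracellular route and includes enzymes inside the cell, such as Nt5c and Entpd5. In G1C7 3 were higher and 2 lower, and in G2C9 4 higher and 3 lower. Of all genes 17.5% were called in G1C7 and 13.5% in G2C9, so the G1C7 count is near the background. Neither count was tested against that share. The median change of the list was 0.19 in G1C7 and 0.00 in G2C9. Panx1, which encodes the channel pannexin 1 that releases ATP, fell to 5.52, 6.30 and 5.44 CPM in G1C7 and 4.12, 4.47 and 4.12 CPM in G2C9, against 15.7, 17.4 and 14.3 CPM in Gcontrol. No library overlapped, and the log2 fold change was -1.46 ± 0.13 for G1C7 (edgeR adjusted p = 3.53e-04) and -1.90 ± 0.14 for G2C9 (adjusted p = 1.57e-04). In the fit of the other 7 libraries, the changes were -1.53 and -1.88 for Panx1 and 0.95 and 0.94 for Sirpa in G1C7 and G2C9. Adk and Ada, whose enzymes remove adenosine, were higher in both derivatives. Adk, adenosine kinase, averaged 118 ± 8.19 CPM in G1C7, 115 ± 5.44 in G2C9 and 74.6 ± 6.81 in Gcontrol (SD, n = 3 each), with log2 fold changes of 0.66 and 0.62 (edgeR adjusted p = 0.00241 and 0.00369 for G1C7 and G2C9). Ada, adenosine deaminase, was higher by 0.50 (log2) for G1C7 (edgeR adjusted p = 0.0176) and 0.58 for G2C9 (adjusted p = 0.0113), with adjusted p of up to 0.0869 in G1C7 and 0.0662 in G2C9 when 1 library was left out. P2ry2, a receptor of ATP and UTP, was higher by 0.91 (log2) for G1C7 (edgeR adjusted p = 0.0148) and 0.83 for G2C9 (adjusted p = 0.0243), with up to 0.0699 and 0.103 when 1 library was left out.

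Further listed genes passed the test in 1 of the derivatives in the fit of all 9 libraries. Entpd5, a diphosphatase of the endoplasmic reticulum, had a log2 fold change of -0.74 ± 0.09 in G1C7 (edgeR adjusted p = 0.00147). Entpd3, an ectonucleotidase related to Entpd1, had 0, 0 and 4 reads in G2C9, 8, 98 and 4 in G1C7 and 81, 48 and 57 in Gcontrol, and was lower in G2C9 (edgeR adjusted p = 0.0454; up to 0.141 with 1 library left out). Nt5c, a cytosolic nucleotidase, had a log2 fold change of -0.49 in G2C9 (edgeR adjusted p = 0.00408). Enpp2, which encodes the secreted phosphodiesterase autotaxin, was higher in G2C9, where its log2 fold change was 1.05 ± 0.27 (edgeR adjusted p = 0.0325; up to 0.118 with 1 library left out). Tested directly, G1C7 was below G2C9 for Enpp2 (-1.67, edgeR adjusted p = 0.0138) and Entpd5 (-0.54, adjusted p = 0.0178), while the derivatives' difference did not pass for Nt5c (adjusted p = 0.0620) or Entpd3 (adjusted p = 0.167). Without the 2 libraries that stood apart, Nt5c (-0.17 in G1C7, edgeR adjusted p = 0.0192) and Entpd3 (-3.32 in G1C7, adjusted p = 1.97e-05) passed in G1C7 too. Enpp2 then passed in opposite directions, lower in G1C7 (-0.87, edgeR adjusted p = 2.16e-09) and higher in G2C9 (0.71, adjusted p = 1.38e-08). In the same fit the differences between the derivatives passed for Nt5c (edgeR adjusted p = 5.20e-04) and Entpd3 (adjusted p = 0.0132).

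Of 19 other checkpoint ligands listed, 10 were tested, and 1 was lower and 0 higher in each derivative, below the share of all genes called (17.5% and 13.5%). The gene was Btn1a1, a butyrophilin, with 0.674, 1.82 and 1.10 CPM in G1C7, 1.11, 0.939 and 0.801 in G2C9 and 4.94, 4.32 and 4.85 in Gcontrol. No derivative library reached Gcontrol, and the log2 fold change was -1.97 ± 0.34 for G1C7 (edgeR adjusted p = 0.00572) and -2.31 ± 0.35 for G2C9 (adjusted p = 0.00364). The median of the list was -0.20 in G1C7 and 0.31 in G2C9.

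Of 19 listed regulators of PD-L1 and CD47, 18 were tested, and 4 were higher and 2 lower in G1C7, 2 higher and 3 lower in G2C9, against 17.5% and 13.5% of all genes called. Cmtm4, whose protein guards PD-L1 from degradation, was higher by 0.67 (log2) for G1C7 (edgeR adjusted p = 0.00578) and 0.68 for G2C9 (adjusted p = 0.00687). Hip1r, whose protein has been linked to lysosomal breakdown of PD-L1 in human cells, had a log2 fold change of -0.69 for G1C7 (edgeR adjusted p = 0.00236) and -0.98 for G2C9 (adjusted p = 6.57e-04). Stub1, a ubiquitin ligase, was higher in G1C7 by 0.71 on the log2 scale (edgeR adjusted p = 0.00404), and Cmtm6, related to Cmtm4, by 0.50 (adjusted p = 0.0316; up to 0.125 with 1 library left out). In G2C9, Stt3a was higher by 0.45 (edgeR adjusted p = 0.0176) and the change of Irf1, an interferon transcription factor, was -0.86 (adjusted p = 0.0142), with up to 0.0937 and 0.0569 when 1 library was left out. Between the derivatives none of Stub1, Cmtm6, Stt3a and Irf1 passed (edgeR adjusted p of 0.0626, 0.735, 0.438 and 0.138). Leaving out the 2 libraries that stood apart, all 4 passed in both derivatives, among them Stub1 in G2C9 (0.31, edgeR adjusted p = 4.40e-05) and Irf1 in G1C7 (-0.53, adjusted p = 2.93e-07), and the difference between the derivatives passed for Stub1 (adjusted p = 1.77e-06) and Irf1 (adjusted p = 5.34e-05). Over the same libraries Cd274 RNA itself did not pass the test in either derivative, as given above. PD-L1 protein was not measured, so an effect of these regulators on it was not tested.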

How the data were processed

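Poly(A) RNA was sequenced as read pairs of 100 bases with a stranded kit, per the labels. The authors deposited counts of reads per gene, made with featureCounts 1.6.0 on GENCODE vM25 (GRCm38), per the file headers. The submitters' processing notes name STAR 2.6.1c, FastQC 0.11.8, edgeR and limma. In 9 of 9 headers options for pairs, strand, multi-mapping and overlap were absent, so mates counted separately, strand was ignored, and reads in several genes or places were dropped.

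Symbols came from GENCODE vM21 (55141 of 55401 IDs; 260 unnamed). From the counts, CPM used TMM factors (0.978 to 1.03). After filterByExpr, 15659 genes entered one edgeR 4.0.16 quasi-likelihood fit (R 4.3.3) of all 9 libraries, with 6 residual degrees of freedom. The threshold for a call was 0.05 on the p-value adjusted by Benjamini-Hochberg over all genes tested. Alternatives were RLE, DESeq2 1.42.0, limma-voom (limma 3.58.1), no filter, counts divided by 2, a replicate block and each library left out. The SE is the absolute log2 change over the root of the F statistic. The procedure was tested on simulated data.

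Named were the members, up to 3 called genes in each direction per list and comparison, and the 3 genes most like each called member. Members and lists were chosen with earlier results of these data known. The main fit did not pair libraries by replicate number. A called gene of the lists is not reported here, though the counts include it.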

Additional observations from a re-analysis of the deposited data

How the results depend on the processing

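Scaling by RLE and dividing counts by 2 changed no member's call. The count of genes called, 2740 in G1C7, 2109 in G2C9, 3124 for the mean of both and 526 between the derivatives, was 1181 to 4133, 878 to 4113, 1318 to 4986 and 186 to 1286 with 1 library left out, and 8581, 8383, 9252 and 4320 without both libraries that stood apart, an alternative added after the data were seen. DESeq2 called 3190 in G2C9 and 1267 between the derivatives. With the replicate block the counts were 1532, 1114, 1971 and 164. Deviations of same-numbered libraries from their group means correlated at r from -0.557 to 0.409. G1C7 replicate 2 and G2C9 replicate 3, which stood apart, deviated together (r = 0.677) and weigh on these values. Whether replicate numbers pair the libraries therefore cannot be told. Of members called higher in G1C7 (1), limma-voom and the replicate block left 0, 1 library left out gave 0 to 1, and both left out gave 3. Of those lower in G1C7 (1), DESeq2, no filter and the replicate block left 0, 1 library left out gave 0 to 3 and both left out 5. In G2C9 (0 higher, 1 lower) 1 library left out gave 0 to 2 higher and 0 to 1 lower, and both left out 2 and 5. For the mean (1 higher, 2 lower), DESeq2 gave 2 and 1, limma-voom 0 higher, no filter and the replicate block 0 and 0, 1 library left out 0 to 1 and 0 to 2, and both left out 3 and 5. Between the derivatives (0), DESeq2 gave 1 higher, 1 library left out up to 1 in each direction, and both left out 3 and 5.

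Directions turned without both libraries for Cd47 (-0.12 in G1C7, -0.17 in G2C9, -0.15 for the mean), Cd200 in G1C7 (0.063), Nectin2 (-0.14 in G1C7, -0.054 for the mean, -0.18 between the derivatives), Nectin3 in G2C9 (0.10) and Nt5e in G2C9 (-0.47). With 1 library left out they turned within these ranges, in G1C7 Cd47 -0.12 to 0.16, Cd200 -0.38 to 0.065, Nectin2 -0.14 to 1.03, and in G2C9 Cd47 -0.17 to 0.13, Nectin3 -0.10 to 0.10, Nt5e -0.47 to 0.75. For the mean they were Cd47 -0.050 to 0.097, Nt5e -0.85 to 0.083, and between the derivatives Cd274 -0.093 to 0.11, Cd276 -1.28 to 0.53, Cd47 -0.14 to 0.24, Pvr -0.41 to 0.23, Nectin2 -0.61 to 0.69. The cause was not tested. Entpd1 rests on 22 to 24 reads per library in Gcontrol, which limits the precision of its fold change.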
